A study of Fundulus heteroclitus with 8 samples.

Results

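Iron, heme and copper carrier transcripts were followed in the testis of adult male mummichog (Fundulus heteroclitus, an estuarine killifish). The 4 control males and the 4 males of the DHT50 group, which lived in water dosed with the androgen 5α-dihydrotestosterone (DHT) at 50 µg/L for 21 days, each gave 1 single-colour array. The control group is described as 0 µg/L over the same 21 days, and no strain or line is named. The labels speak of biological replicates taken from individuals. Carriers were found by product name: a probe was taken when the array design names it with transferrin, hemopexin, ceruloplasmin or ferritin. Of 7157 probes 17 carried such a name. One of them, Electron transfer flavoprotein-ubiquinone oxidoreductase, a mitochondrial enzyme, matched only through the word "transferring" and is kept apart here. The other 16 were 12 probes of secreted carriers and 4 of ferritins, and 0 probes were named as a transferrin receptor. The files give product names and no probe sequences, and no coordinates are given for these probes.

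Transferrin carries ferric iron in plasma, hemopexin binds free heme, and ceruloplasmin is a copper-bearing ferroxidase that oxidizes iron so that transferrin can take it up. The liver makes all of them for the blood, and in rats Sertoli cells also secrete transferrin and ceruloplasmin, which pass iron and copper to germ cells behind the blood-testis barrier. Ferritins stay inside cells and store iron in a protein shell, in which heavy subunits oxidize iron and light subunits help to form the mineral core. Fish and amphibians have a further middle subunit. Ferritin synthesis is controlled largely at translation, so transcript and protein need not run together.

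Levels are log2 spot signals minus the 75th percentile of the same array, so that 0 is as bright as that percentile and 1 unit is a doubling. Testing was limited to the 5989 probes that the scanner software marked as well above background on 4 or more arrays of the 8, and 13 of the 16 carrier probes (9 secreted, 4 ferritin) were among them. Brightness differed widely, with a 75th percentile of log2 signal from 7.97 in DHT50 2 to 11.21 in control 1. It was 11.21, 9.99, 10.09 and 10.03 in controls 1 to 4 and 10.95, 7.97, 9.13 and 9.50 in DHT50 1 to 4. DHT50 2, 3 and 4 were thus dimmer than every control, and brightness and group cannot be fully told apart. Germ cell and sperm names were well above background in 12 of 13 cases by the same rule, among them DEAD-box protein 4 (vasa, an RNA helicase of germ cells) on all 4 arrays of each group. DEAD-box protein 4 itself changed by -0.96 ± 0.54 (limma unadjusted p = 0.103). The median change of the 12 tested germ cell and sperm names was 0.021, with 6 higher and 6 lower. For 11 tested Sertoli and Leydig cell names the median was 0.041, with 6 higher and 5 lower. Both lists follow product names, and took in such names as Zona pellucida sperm-binding protein 3 and Wilms' tumor 1-associating protein. Their medians are therefore no measure of cell numbers. In whole tissue, fewer cells of a type and less RNA per cell cannot be told apart.

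All 13 tested carrier probes had a fitted change below 0 in DHT50, where 46.4% of all tested probes did. At an unadjusted p under 0.05 there were 3 carrier probes lower and 0 higher (limma, two-sided), where 1.42% of all probes were lower and 3.29% higher at that level. The 3 were both probes of ceruloplasmin and the oocyte isoform of ferritin heavy chain. None passed after Benjamini-Hochberg adjustment over all probes, nor did any other probe (0 of 5989, 0%, while 282 probes or 4.71% had an unadjusted p under 0.05), and the lowest adjusted p was 0.216. The median change was -1.68 over the 13 carrier probes and 0.059 over all tested probes. Without control 1 the carriers' median was -0.42, with 11 of the 13 lower. At an unadjusted p under 0.05 there were then 2 carrier probes, beside 155 of all probes. Without control 1 and DHT50 2 together the carriers' median was -1.01, with 12 of the 13 lower. In that fit 2 carrier probes had an unadjusted p under 0.05, beside 160 of all probes. Probes of 1 name are not replicates, and without sequences it was not settled whether they read 1 transcript.

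**Figure D1:**
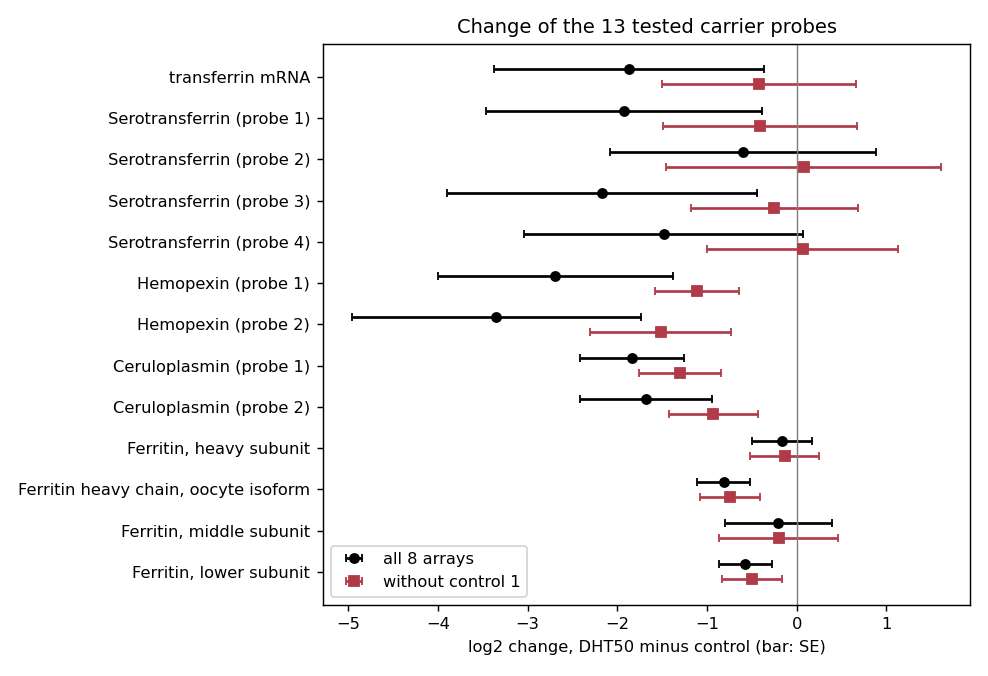
Log2 change (DHT50 minus control, x axis) with its standard error for each of the 13 tested carrier probes (rows), from all 8 arrays (black circles) and without control 1 (red squares). The black points all lie below 0, from -3.35 for the second probe of Hemopexin to -0.16 for Ferritin, heavy subunit, and the transferrin points lie near 0 without control 1.

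Transferrin, the iron carrier, varied more between males of a group than between the groups. The probe named transferrin mRNA stood at 7.20, 3.21, -0.081 and 1.01 in controls 1 to 4. In DHT50 1 to 4 it stood at -0.70, 3.56, -0.37 and 1.36. Control 1 was far above all other males, DHT50 2 was second, and the groups overlapped throughout the lower range. The mean was 2.84 ± 3.21 (SD, n = 4) in controls and 0.96 ± 1.95 (SD, n = 4) in DHT50, a change of -1.87 ± 1.51 (SE, limma adjusted p = 0.685, exact permutation p = 0.429). Without control 1 the change was -0.42 ± 1.08, and without control 1 and DHT50 2 together it was -1.28 ± 0.87.

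The Serotransferrin name had 5 probes, of which 4 were tested. The brightest stood at 6.96, 2.69, -0.52 and 0.54 in controls and at -1.13, 3.08, -0.91 and 0.92 in DHT50, with a change of -1.93 ± 1.54 (adjusted p = 0.685). Its order of males was that of transferrin mRNA, with a Pearson r of 0.9997 over the 8 arrays, and without sequences it was not settled whether both probes read 1 transcript. The second probe had another order. It was highest in DHT50 2, at 3.72, followed by control 1 at 1.51, and lay between -3.69 and -0.22 in the other 6 males. Its change was -0.60 ± 1.48. The remaining 2 tested probes were again highest in control 1, at 4.43 and 2.94, with changes of -2.17 ± 1.73 and -1.48 ± 1.55. Correlations between the 4 probes over the 8 arrays ran from 0.710 to 0.984. Without control 1 the 4 changes were -0.41, 0.078, -0.25 and 0.066, so that a transferrin difference between the groups was not resolved in the other 7 males. Those 7 still hold DHT50 2, the male with the second-highest transferrin mRNA. With DHT50 2 left out as well, the 4 changes were -1.27 ± 0.86, -1.53 ± 0.67, -1.01 ± 0.72 and -0.99 ± 0.59.

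**Figure D2:**
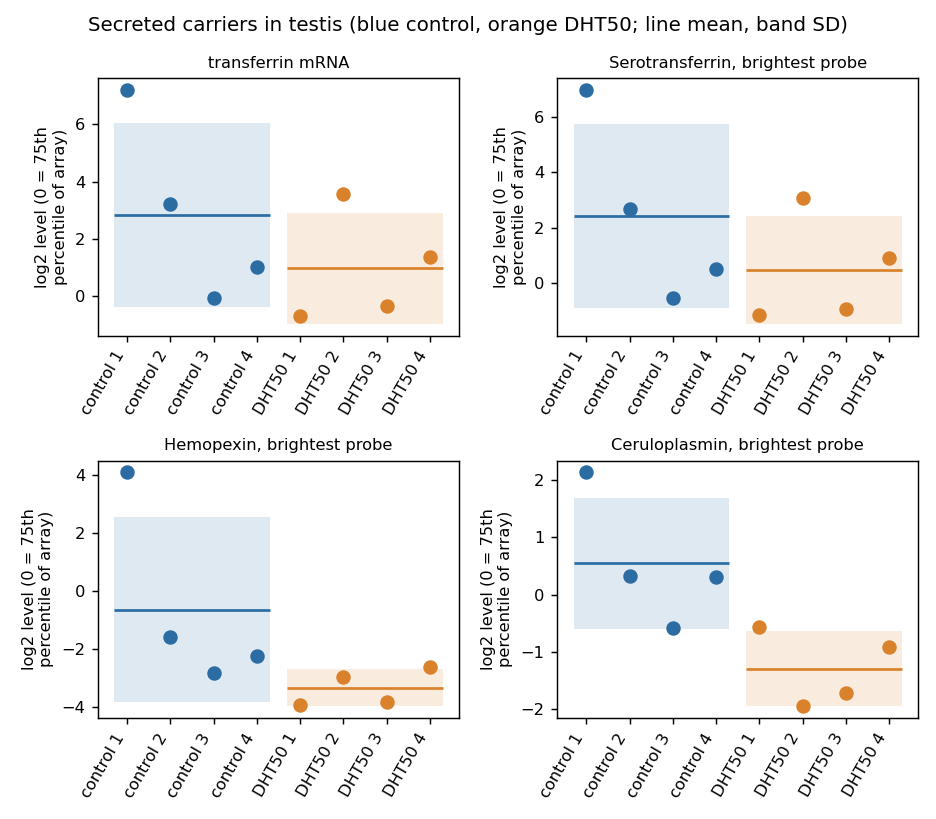
Log2 level (y axis, 0 is the 75th percentile of the array) of the brightest probe of each secreted carrier in each male (x axis), with the group mean as a line and 1 SD as a band. Control 1 is the highest male in all 4 panels, while DHT50 2 is second for both transferrin names and the lowest of all for ceruloplasmin.

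Hemopexin, the heme carrier, was far higher in control 1 than in any other male. Its brightest probe stood at 4.08, -1.61, -2.83 and -2.25 in controls and at -3.92, -2.97, -3.84 and -2.63 in DHT50. Apart from control 1, controls 2 and 4 lay above every DHT50 male, and control 3 lay between them. The mean was -0.65 ± 3.20 (SD, n = 4) in controls and -3.34 ± 0.64 (SD, n = 4) in DHT50, a change of -2.69 ± 1.31 (limma adjusted p = 0.685, exact permutation p = 0.0571). Without control 1 the change was -1.11 ± 0.47, with an unadjusted p of 0.0408 and an adjusted p of 0.942 in limma. A second probe, which the design also calls hyaluronidase, had a change of -3.35 ± 1.61 and of -1.52 ± 0.79 without control 1, and was well above background on only 2 of 4 DHT50 arrays. The 2 probes ran together over the 8 arrays (r = 0.972). The spread of the first probe in controls was 3.20 (SD) with control 1 and 0.61 over controls 2 to 4.

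Ceruloplasmin, the copper-bearing ferroxidase, showed the most regular difference of the secreted carriers. The brighter probe stood at 2.13, 0.32, -0.58 and 0.31 in controls and at -0.57, -1.95, -1.72 and -0.92 in DHT50. The groups overlapped only by DHT50 1 (-0.573), which lay just above control 3 (-0.582). Its mean was 0.55 ± 1.14 (SD, n = 4) in controls and -1.29 ± 0.65 (SD, n = 4) in DHT50, a 3.57-fold lower level and a change of -1.84 ± 0.58 (limma unadjusted p = 0.0106, adjusted p = 0.685, exact permutation p = 0.0571). The smallest p that 4 against 4 arrays allow in the permutation test is 0.0286. Without control 1 the change was -1.31 ± 0.46 (limma unadjusted p = 0.0184). The second probe stood at 0.76, -2.01, -2.62 and -2.12 in controls and at -2.11, -2.93, -4.10 and -3.59 in DHT50, a change of -1.68 ± 0.74 (limma unadjusted p = 0.0474). It was -0.93 ± 0.50 without control 1. Both probes were well above background on all 8 arrays and correlated with r = 0.911. Both also followed array brightness, which was lower in DHT50 2, 3 and 4 than in every control, with r of 0.799 for the brighter probe and 0.696 for the second. With brightness in the fit the changes were -1.16 ± 0.49 (limma unadjusted p = 0.0459) and -0.99 ± 0.76 (limma unadjusted p = 0.229). Unlike transferrin, ceruloplasmin was at its lowest level of the brighter probe in DHT50 2.

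The arrays lay in 2 rows of 1 slide. Slide row 1 held control 1 and DHT50 1 to 3, and row 2 held controls 2 to 4 and DHT50 4. In row 1 alone, where control 1 is the only control and is assumed to vary like the DHT50 males, the brightest probes changed by -7.66 (Hemopexin), -6.61 (Serotransferrin), -6.37 (transferrin mRNA) and -3.55 (Ceruloplasmin). In row 2 alone, with 1 DHT50 male, these changes were -0.40, 0.021, -0.018 and -0.94. With the row as a block they were -4.03, -3.30, -3.19 and -2.24, with adjusted p = 0.568 for each in limma. Since control 1 is the only control of row 1, slide row and that male cannot be told apart in the gap between the rows.

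Most other liver and plasma protein transcripts were highest in control 1, like the brightest probe of each secreted carrier. Of 27 such names on the array, matched by product name and without the carriers, 24 were tested, 21 of them lower in DHT50 and 3 higher, with a median change of -1.53. At an unadjusted p under 0.05 there were 3 lower (hepatocyte growth factor activator, Fetuin-B and complement C3) and 0 higher. In control 1 their median stood 4.11 above the genes' own means over the 8 arrays, and 18 of the 24 were highest there. In controls 2 to 4 it stood at 0.56, -1.01 and -0.053. In DHT50 1 to 4 it was -1.55, 0.81, -1.28 and -0.69, again highest in DHT50 2 among the exposed males. The same measure for the 4 secreted carrier names was 5.40, 0.96, -1.40 and -0.57 in controls and -2.25, 0.32, -2.06 and -0.54 in DHT50. Ceruloplasmin did not share the higher level in DHT50 2, where its brighter probe was lowest of all males, at -1.95. The summed level of the 24 liver names ran from 4.06 to 8.93 (log2) in controls and from 3.93 to 5.42 in DHT50, and 20 to 24 of them were well above background on each array. Without control 1 their median change was -0.37, and without control 1 and DHT50 2 together it was -0.82. The part of these transcripts in the carriers' differences was not tested.

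**Figure D3:**
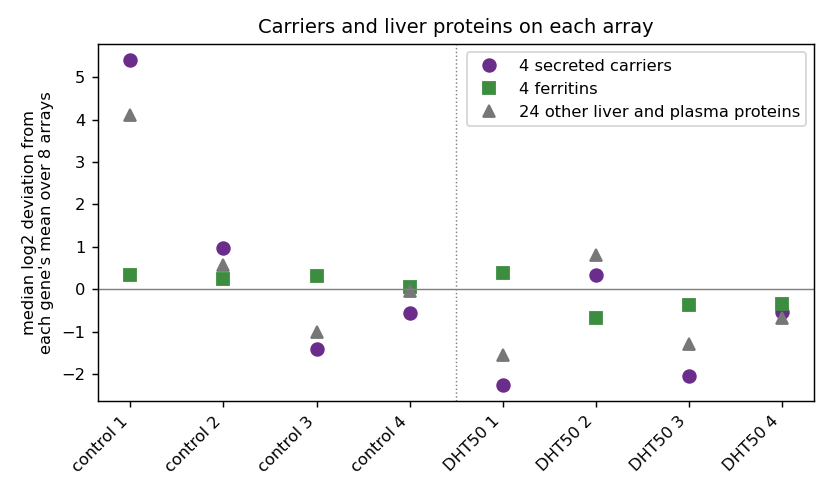
Median log2 deviation from each gene's own mean over the 8 arrays (y axis) for the 4 secreted carriers (purple circles), the 4 ferritins (green squares) and 24 other liver and plasma proteins (grey triangles) in each male (x axis). Secreted carriers and liver proteins are both highest in control 1, at 5.40 and 4.11, while ferritins stay between -0.68 and 0.38.

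Ferritins, the intracellular iron stores, differed far less, and control 1 stood at most 0.29 above the mean of the other controls. The oocyte isoform of the heavy chain, named after a Xenopus gene, was below every control in all 4 DHT50 males. It stood at 2.08, 1.77, 1.84 and 1.76 in controls and at 1.47, 0.72, 0.99 and 1.003 in DHT50. The mean was 1.86 ± 0.15 (SD, n = 4) against 1.05 ± 0.31 (SD, n = 4), a 1.76-fold lower level. Its change was -0.82 ± 0.30 (limma unadjusted p = 0.0215, adjusted p = 0.685, exact permutation p = 0.0286) and -0.74 without control 1 (limma unadjusted p = 0.0534).

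The lower subunit, a light-chain type, also had every DHT50 male below every control. It stood at 1.97, 1.68, 1.71 and 1.64 in controls and at 1.55, 0.83, 1.12 and 1.20 in DHT50, with a change of -0.57 ± 0.30 (limma unadjusted p = 0.0816, adjusted p = 0.685, exact permutation p = 0.0286). Thus 2 of the 13 carrier probes had DHT50 wholly below control, where 0.952% of all tested probes did and 1.27% lay wholly above. These 2 ferritin probes ran almost in parallel over the 8 arrays (r = 0.988, and 0.987 over 6 arrays without control 1 and DHT50 2). Whether they read different transcripts could not be checked without their sequences. Both followed array brightness, with r of 0.831 for the oocyte isoform and 0.902 for the lower subunit, and brightness is also what was subtracted. DHT50 2, 3 and 4 were dimmer than every control, so brightness and group cannot be fully told apart here. With brightness in the fit the changes were -0.58 ± 0.21 and -0.35 ± 0.21, and with normexp background correction -0.71 and -0.48. In slide row 1 alone they were -1.02 and -0.80, and in row 2 alone -0.79 and -0.48.

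**Figure D4:**
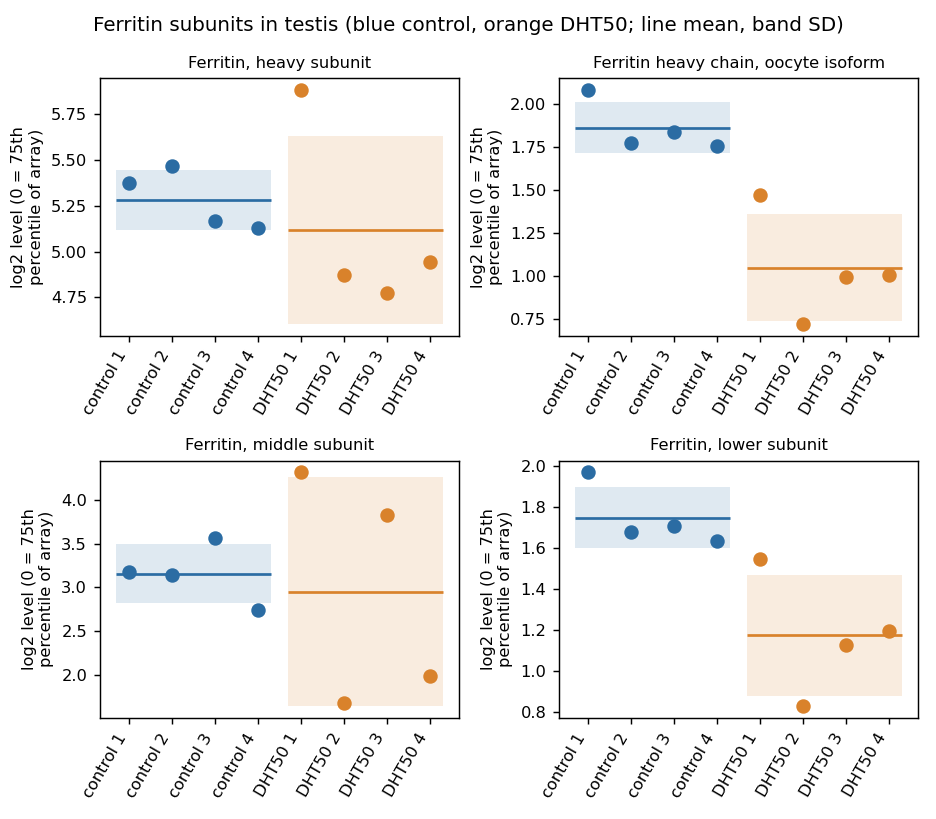
Log2 level (y axis, 0 is the 75th percentile of the array) of the 4 ferritin subunits in each male (x axis), with the group mean as a line and 1 SD as a band. For the oocyte heavy chain and the lower subunit all DHT50 males lie below all controls, while for the middle subunit the DHT50 males lie on both sides of the controls.

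The remaining ferritins gave no regular difference. Ferritin, heavy subunit stood at 5.37, 5.46, 5.17 and 5.13 in controls and at 5.88, 4.87, 4.77 and 4.94 in DHT50. DHT50 2, 3 and 4 lay below all controls, and DHT50 1 lay above them. Its change was -0.16 ± 0.34 (limma adjusted p = 0.857), and -0.42 without DHT50 1. Ferritin, middle subunit stood at 3.17, 3.15, 3.57 and 2.74 in controls and at 4.31, 1.68, 3.82 and 1.99 in DHT50. DHT50 1 and 3 lay above all controls and DHT50 2 and 4 below all of them. The SD was 0.34 in controls and 1.31 in DHT50, and the change was -0.21 ± 0.60 (limma adjusted p = 0.903). Its sign turned with brightness in the fit (0.41), where that of the heavy subunit turned too (0.12), in slide row 1 alone (0.099) and without DHT50 2 (0.22) or DHT50 4 (0.12).

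Set side by side, the 4 secreted names (brightest probe each) had a median change of -1.90, from -2.69 to -1.84, and the 4 ferritin names a median of -0.39, from -0.82 to -0.16. The gap between these medians was -1.51. The secreted median lies between transferrin mRNA (-1.87) and Serotransferrin (-1.93), whose probes had r = 0.9997. If both read 1 transcript, the secreted medians count transferrin 2 times. The secreted median deviation minus the ferritin one, taken male by male, had an SD of 2.39 within groups. That SD is a spread of single males and not an error of the gap. The gap was -0.42 without control 1 and 0.42 in slide row 2 alone, the only alternative in which its sign turned. The per-male medians differed in spread: the SD within groups was 2.32 for the secreted carriers and 0.33 for the ferritins. Among the secreted carriers, transferrin mRNA and hemopexin correlated over the 8 arrays with r = 0.888 (0.914 over 6 arrays without control 1 and DHT50 2), and transferrin mRNA and ceruloplasmin with r = 0.629. Ceruloplasmin ran closer to the lower ferritin subunit (r = 0.894) and the oocyte heavy chain (r = 0.879) than to transferrin, and its correlation with hemopexin was of like size (r = 0.862). Ceruloplasmin, the lower subunit and the oocyte heavy chain all followed array brightness (r = 0.799, 0.902 and 0.831), and transferrin mRNA did so less (r = 0.135). These arrays share their scaling to the 75th percentile, and the correlations are descriptions over 8 males.

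Other genes of iron, heme and copper handling, found by name, numbered 14, all tested. Of these 11 were lower and 3 higher, with a median change of -0.30, and 1 was lower and 0 higher at an unadjusted p under 0.05. That one was Copper-transporting ATPase 1, a pump that moves copper to enzymes of the secretory pathway and out of cells. It stood at -1.50, -2.32, -3.52 and -2.48 in controls and at -4.62, -3.28, -3.94 and -3.19 in DHT50, where the groups overlapped only through control 3. Its change was -1.30 ± 0.50 (limma unadjusted p = 0.0265, adjusted p = 0.685), -0.98 without control 1 and -0.87 with normexp.

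Hepcidin, the liver peptide hormone that closes the iron exporter ferroportin and rises with iron and inflammation, stood apart in 1 male. Its brightest probe was at 6.46 in DHT50 2, against -2.14, -2.17 and -2.67 in the other DHT50 males and -2.24, -0.31, -2.07 and -3.22 in controls. The other 2 probes of the name were also highest in DHT50 2, at 5.61 and 0.10. DHT50 2 is the dimmest array and the male with the second-highest transferrin. The change of the brightest probe was 1.83 ± 1.82 (limma adjusted p = 0.719), and -0.37 ± 0.62 without DHT50 2. In control 1, the male with the highest transferrin and hemopexin, hepcidin stood at -2.24, within the range of the other controls.

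**Figure D5:**
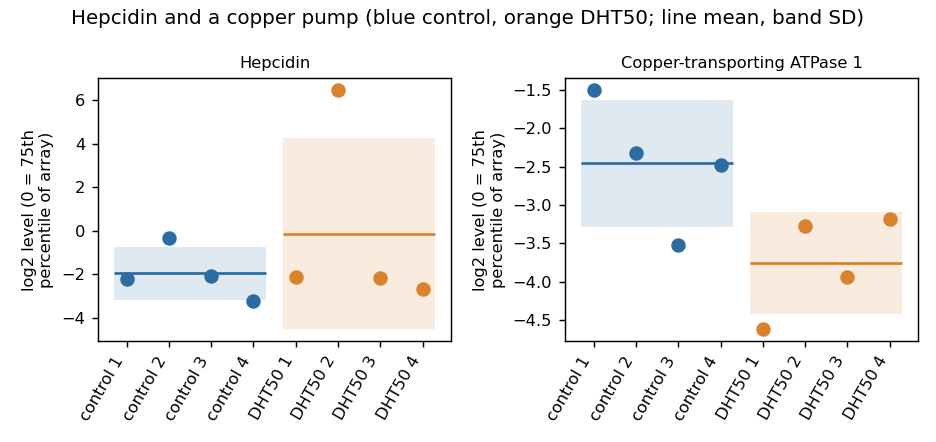
Log2 level (y axis, 0 is the 75th percentile of the array) of the brightest probe of Hepcidin and of Copper-transporting ATPase 1 in each male (x axis), with the group mean as a line and 1 SD as a band. Hepcidin is at 6.46 in DHT50 2 and below 0 in all 7 other males, while the copper pump is below -3 in all DHT50 males and in control 3.

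Among the heme synthesis enzymes named here the changes ran from -0.67 to 0.42. Uroporphyrinogen decarboxylase was at -0.59 ± 0.36, 5-aminolevulinate synthase, nonspecific, mitochondrial, which starts heme synthesis in most tissues, at -0.67 ± 0.48, and the erythroid-specific form of the synthase at 0.42 ± 0.58. Coproporphyrinogen III oxidase was at 0.28 ± 0.45. NifU-like N-terminal domain containing protein, a scaffold for iron-sulfur clusters, was at -0.84 ± 0.48. None of these 5 passed at an unadjusted p under 0.05. Red blood cell names took in hemoglobins, which carry heme themselves, and others such as carbonic anhydrase, band 3 anion exchanger and the erythroid-specific synthase. The brightest of them, Hemoglobin alpha chain, was at -0.11 ± 0.31. Among the red blood cell names 1 was higher and 0 lower at an unadjusted p under 0.05. That was Hemoglobin alpha-D chain, at 1.498 ± 0.373 (limma unadjusted p = 0.00265, adjusted p = 0.685). Its level in all 4 DHT50 males lay above every control. The red blood cell names were higher in 10 of 13 and lower in 3, with a median change of 0.47. That median was 0.14 with normexp and 0.21 without control 1, and its sign turned with brightness in the fit (-0.22) and without control 1 and DHT50 2 together (-0.23). Macrophage names, of cells that recycle iron, were lower in 4 of 7 with a median of -0.15, whose sign turned without control 1 (0.76) or control 3 (0.10), without control 1 and DHT50 2 together (0.35), with array weights (0.75) and with brightness in the fit (0.19). Among the macrophage names 1 was higher and 0 lower at an unadjusted p under 0.05. That was Lysozyme g, at 1.85 ± 0.81 (limma unadjusted p = 0.0460, adjusted p = 0.685). Among the 4 lower macrophage names, Lysozyme C was at -2.45 ± 1.14 (limma unadjusted p = 0.0573). Macrophage migration inhibitory factor was at -0.87 ± 0.41 (limma unadjusted p = 0.0615). The macrophage list follows product names, and took in such names as Leukocyte elastase inhibitor. Summed levels of both lists overlapped between the 2 groups. Controls first, they were 6.69 to 7.15 and 6.36 to 7.20 for red blood cell names. For macrophage names they were 2.33 to 4.19 and 2.17 to 2.97. The part of these cells in the ferritin levels was not tested.

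The genes most like each carrier, by Pearson correlation of log2 level over the 8 arrays among 3028 named probes well above background on all arrays, differed between the carriers. For transferrin mRNA they were Beta-microseminoprotein (r = 0.994), C-type lectin superfamily members 8 (0.991) and 9 (0.9904), Complement C3-1 (0.9896) and TBT-binding protein 2 mRNA (0.986), and the brightest Serotransferrin probe had the same 5. For hemopexin they were Glutathione S-transferase 1 (0.9901), serine/cysteine proteinase inhibitor mRNA (0.989), Pregnancy zone protein (0.987), Catecholamines up protein (0.985) and Inter-alpha-trypsin inhibitor heavy chain H2 (0.984). For ceruloplasmin the closest was the glycolytic enzyme Glyceraldehyde-3-phosphate dehydrogenase (0.9755), followed by Ribonuclease UK114 (0.933), Urokinase-type plasminogen activator (0.931), Phospholipid hydroperoxide glutathione peroxidase, mitochondrial (0.928) and Histone H1.0 (0.924). The lower ferritin subunit and the oocyte heavy chain shared Dihydrolipoyl dehydrogenase, mitochondrial as the closest gene (0.974 and 0.9698). Both also had Histone H1.0, Peroxiredoxin 1, an antioxidant enzyme, and Delta3,5-delta2,4-dienoyl-CoA isomerase, mitochondrial among their closest 5. The heavy subunit was closest to 26S protease regulatory subunit 6B (0.952) and the middle subunit to Mid1 interacting protein 1 (0.912). Over 6 arrays, without control 1 and DHT50 2, r of transferrin mRNA with its 5 genes ran from 0.955 to 0.990. That of hemopexin ran from 0.881 to 0.957. That of ceruloplasmin ran from 0.705 (Phospholipid hydroperoxide glutathione peroxidase, mitochondrial) to 0.945 (Histone H1.0).

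The 3 carrier probes left untested were dim. Serotransferrin I lay between -7.09 and -4.69 and the fifth Serotransferrin probe between -7.23 and -4.18, each well above background on 1 control array and 0 DHT50 arrays. The third Hemopexin probe was well above background only in control 1, where it stood at -2.05, and lay between -6.88 and -4.57 elsewhere. Against the background limit of the DHT50 arrays its control mean was 1.27-fold higher. This is no lower bound, since that mean takes in 3 controls that were not well above background. Electron transfer flavoprotein-ubiquinone oxidoreductase, the enzyme matched by accident of its name, had a change of 0.57 ± 0.42 (limma adjusted p = 0.685) and was the 1 probe of the 17 named that was tested and higher in DHT50.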

How the data were processed

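The deposited spot intensity was the green (Cy3) processed signal of Agilent Feature Extraction 10.7.1.1, with background subtracted and detrended within the array, per the file headers. Deposited median spot and local background intensities were used for normexp (offset 50), in place of mean spot signals. Deposited flags (other values, 0 or 1) marked spots well above background and outliers, and 28 of 114512 readings were left out as outliers. The authors also deposited a log2 table whose columns hold the same sorted values, and its tool is not given. Its lowest correlation over spots with the log2 scanner values of an array was 0.995 (DHT50 2).

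Log2 processed signals were centred on each array's 75th percentile and the spots of a probe averaged. DHT50 was compared with control by the moderated linear models of limma (version 3.58.1, R 4.3.3; two-sided, p-values adjusted by Benjamini-Hochberg across 5989 probes), and single values by exact permutation over 70 assignments. The fit was tested on simulated data. The 23 alternatives are given in the closing section. Group and replicate come from sample titles.

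The members, lists, tests and alternatives were chosen with earlier results of these data known. Named were all carriers by their brightest probe, the iron genes with the lowest p, up to 4 per direction, and the 5 genes most correlated with each carrier. Lists were matched by product name, leaving out parvalbumin, plasminogen activator, another DEAD-box protein and hemoglobin-binding names. The number of arrays limits the precision (median SE of a log2 change 0.45).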

Additional observations from a re-analysis of the deposited data

Results flagged for a closer look

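Within each group of 4 males, a male was singled out when its gap to the nearest other male, as a share of the group's range, passed Dixon's critical value, which chance gives in about 5% of groups. Of 40 groups of values examined, 4 met it. Hepcidin stood at 6.46 in DHT50 2, with the next DHT50 male at -2.14 (gap 0.942 of the range). Ferritin, heavy subunit stood at 5.88 in DHT50 1, with the next DHT50 male at 4.94 (0.847). Electron transfer flavoprotein-ubiquinone oxidoreductase stood at -3.85 in DHT50 1, with the next at -2.90 (0.937). The median deviation of the 14 other iron, heme and copper genes was 0.60 in control 4, with the next control at 0.085 (0.838). Control 1, far above the other controls for transferrin and hemopexin, did not pass this measure for any secreted carrier name.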

How the results depend on the processing

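No carrier passed an adjusted p of 0.05 under the 23 alternatives, except in slide row 1 alone, where control 1 is the only control: there both tested Hemopexin probes (-7.66 and -9.34, adjusted p = 0.00621 each) and 1 fainter Serotransferrin probe (-8.01, adjusted p = 0.0228) did. In that row limma called 106 probes, against 0 in each of the 22 others. There the median change of the secreted carriers was -6.49 and its gap to the ferritins -5.99. Carrier probes at an unadjusted p under 0.05 numbered 3 of 13, 1 with normexp, 6 with the slide row as a block, 8 in slide row 1 alone, and 1 (without DHT50 4) to 5 (without control 3 or control 4) with 1 array left out. Directions turned for Ferritin, middle subunit in slide row 1 alone (0.099), with brightness in the fit (0.41), without control 1 and DHT50 2 together (0.22) and with 1 array left out (-0.66 to 0.22). They also turned for Ferritin, heavy subunit with brightness in the fit (0.12) and for the brightest Serotransferrin probe in slide row 2 alone (0.021). Among the fainter Serotransferrin probes, the second turned without DHT50 1 (0.26) or control 1 (0.078). The third turned in slide row 2 alone (0.019) and the fourth without control 1 (0.066). The causes were not tested. With 1 array left out, no adjusted call was made over all probes (0 to 0), the secreted median ran from -2.87 to -0.77, the ferritin median from -0.68 to -0.27, their gap from -2.49 to -0.42, and the median of the other iron, heme and copper genes from -0.42 to -0.17. Ceruloplasmin, counted by its brighter probe, was lower in all 23, from -3.55 to -0.94, with an unadjusted p under 0.05 in 22. The oocyte ferritin heavy chain was lower in all 23, from -1.02 to -0.58, with such a p in 17. The second Ceruloplasmin probe passed less often. Its unadjusted p in limma was 0.0752 with normexp, 0.229 with brightness in the fit and 0.0947 without control 1. That p was also above 0.05 without DHT50 2 (0.0688), DHT50 3 (0.124), DHT50 4 (0.0994) or control 2 (0.0541). Without control 1 and DHT50 2 together it was 0.0945. All probes at an unadjusted p under 0.05 ranged from 81 (normexp) to 1389 (without DHT50 1). Same-numbered males deviated together with r of -0.11 to 0.38, so the numbers were not taken to pair them. The replicate block kept the changes, gave 4 of 13 carrier probes and 597 of all probes at an unadjusted p under 0.05, and 0 adjusted calls. Low signal on dim arrays, chiefly DHT50 2, limits the faint probes.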
